A study of Mus musculus with 8 samples.

Results

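The members are 9 genes known as direct targets of the tumour suppressor p53: Cdkn1a, Mdm2, Ccng1, Btg2, Trp53inp1, Phlda3, Bbc3, Bax and Plk2. They were chosen by name, through the RefSeq transcript that each array probe is annotated with, and all their 11 probes were read, out of 55681 non-control probes. After a filter on dim probes, 25799 genes and unnamed probes were tested, and all 9 members were among them. Their levels were measured in the mouse fibroblast line 3T3-L1, which had been kept in adipogenic medium for 1 week, and the labels call the result adipocytes. The cells received culture supernatant, diluted 2-fold, of human HL-60 leukaemia cells made macrophage-like by 5 days in 30 nM of the phorbol ester PMA (phorbol 12-myristate 13-acetate). The 4 groups were knockdown supernatant for 3 h, control supernatant for 3 h, knockdown supernatant for 6 h and control supernatant for 6 h, with 2 one-colour arrays each. The labels give 10% fetal calf serum for every sample. The knockdown supernatant came from HL-60 cells with the ubiquitin protease USP2 knocked down, and the control supernatant from cells given a mock vector. Both supernatants were made in medium with the phorbol ester, and the knockdown was in the human cells that conditioned the medium, not in the mouse cells that were measured. The labels name biological replicates, but not whether separate batches of supernatant were used, so the p-values measure the spread between these arrays. Each comparison asks how the mouse cells differ between the supernatants or between the times.

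The protein p53 is a transcription factor that stays scarce while Mdm2, an E3 ubiquitin ligase and itself a p53 target, marks it for degradation. When DNA damage or other stress frees p53, it binds paired half-sites near its target genes and raises a set that halts the cell cycle or starts apoptosis. Several of these genes also answer growth factors, cytokines or cyclic AMP without p53. Cdkn1a encodes p21, an inhibitor of cyclin-dependent kinases, and Ccng1 encodes cyclin G1. Btg2 encodes an antiproliferative protein that binds the deadenylase complex, and Plk2 a polo-like kinase. Bbc3 (PUMA) and Bax are proapoptotic members of the Bcl2 family. Phlda3 encodes an inhibitor of the kinase Akt, and Trp53inp1 a stress protein that acts in autophagy and in p53 phosphorylation.

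Promoter sequence was taken from RefSeq (GRCm38.p6) for 8 of the 9 members, which have 11 listed promoters. The 250 bases before each start were searched on both strands for 4 motifs, chosen with the expression values known. They were the p53 half-site, the CArG box, the cyclic AMP response element (TGACGTCA) and the AP-1 site (TGANTCA). The cyclic AMP response element stood in 2 member promoters, those of Btg2 and Plk2, and in 1.55% of all 32851 promoters. Both are shown because these genes had the largest differences between the supernatants at 3 h, and capitals mark the element, 166 to 159 bases before the start of Btg2 and 62 to 55 bases before that of Plk2.
Btg2 (chr1:134079156-134079405, minus strand): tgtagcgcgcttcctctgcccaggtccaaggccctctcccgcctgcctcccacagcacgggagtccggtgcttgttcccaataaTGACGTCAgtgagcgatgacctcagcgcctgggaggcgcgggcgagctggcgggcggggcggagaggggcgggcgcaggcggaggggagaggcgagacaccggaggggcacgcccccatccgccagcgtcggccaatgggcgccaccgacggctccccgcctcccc
Plk2 (chr13:110394794-110395043, plus strand): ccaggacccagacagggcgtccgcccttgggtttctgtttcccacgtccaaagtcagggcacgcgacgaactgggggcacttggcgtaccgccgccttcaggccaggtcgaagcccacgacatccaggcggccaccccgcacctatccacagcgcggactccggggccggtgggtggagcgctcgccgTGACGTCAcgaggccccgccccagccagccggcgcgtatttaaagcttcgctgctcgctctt

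The p53 half-site stood in 4 member promoters, against 7.13% of all promoters. These windows are shown because they carry the motif that names the gene set, with the half-site in capitals. Listed starts were not matched to the transcripts that the probes are annotated to. Cdkn1a held the half-site at 73 to 64 and at 51 to 42 bases before a listed start. It stood 201 to 192 bases before the start of Bax, 186 to 177 before that of Mdm2 and 185 to 176 before that of Ccng1.
Cdkn1a (chr17:29090881-29090962, plus strand): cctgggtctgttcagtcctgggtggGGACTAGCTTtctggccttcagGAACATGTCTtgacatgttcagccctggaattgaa
Mdm2 (chr10:117710910-117710969, minus strand): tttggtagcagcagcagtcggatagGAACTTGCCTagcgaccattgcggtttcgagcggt
Ccng1 (chr11:40755437-40755496, minus strand): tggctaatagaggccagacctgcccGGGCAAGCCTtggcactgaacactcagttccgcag
Bax (chr7:45467065-45467124, minus strand): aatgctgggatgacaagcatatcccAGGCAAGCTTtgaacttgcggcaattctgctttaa

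None of the 11 member promoters held a CArG box, against 1.47% of all promoters, or an AP-1 site, against 6.75%. No match overlapped another. A match describes letters in this window and was not tested as a binding site.

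All values are levels on a log2 scale, as processed signal minus the 75th percentile of the array, so 0 marks that percentile, and differences are on the same scale. Since each probe has its own brightness, levels were not compared between genes. Each array had 59305 non-control spots, none of them saturated, and 50.7% to 55.9% of the spots were well above background. Every member probe was well above background on all 8 arrays. Replicate arrays correlated at 0.998 and 0.993 in the knockdown groups at 3 h and 6 h, and at 0.997 and 0.988 in the control groups. The knockdown arrays filled slide columns 3 and 4 and the control arrays columns 1 and 2, and each time had a slide row of its own. Supernatant and column, and time and row, therefore cannot be told apart. Of 12 adipocyte markers, 5 were above background on every array, among them Pparg and Fabp4, but Adipoq, Cidec, Cd36, Lep, Cfd and Slc2a4 were above background on none, although all of them had probes. Of 9 preadipocyte and fibroblast markers, 8 were above background on every array.

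Plk2 was the 1 of the 9 members that passed the test between the supernatants, higher with knockdown supernatant when both times were averaged. At 3 h Btg2 and Plk2 had the largest differences, 1.17 and 0.73 higher on the knockdown arrays, and Cdkn1a was next at 0.31. The apoptosis genes Bbc3 and Bax had differences between -0.075 and 0.011 at the 2 times. In such bulk RNA, fewer cells with a transcript and less of it per cell cannot be told apart. At 3 h 0 of 9 members passed an adjusted p of 0.05 in limma, 2 at an unadjusted p of 0.05, while 0.244% of all 25799 features passed. At 6 h 0 members passed, 2 unadjusted, against 2.3% of all features. For the average of both times 1 member passed, 4 unadjusted, against 3.13% of all features. Unadjusted, 2725 of all 25799 features passed at 3 h, 4987 at 6 h and 5087 for the average. The median difference of the 9 members was 0.01 at 3 h and -0.032 for the average, and that of all features was -0.016 and -0.011. The arrays of the supernatants did not overlap for 6 members at 3 h, 4 higher and 2 lower with knockdown supernatant, and for 4 members at 6 h, 2 in each direction. Among all features 47.3% at 3 h and 47.6% at 6 h did not overlap, so the members' counts were near the background. The test of whether the supernatant difference itself changed between the times passed for 0 members, 1 unadjusted, and for 0.0% of all features, of which 2272 passed unadjusted.

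**Figure D1:**
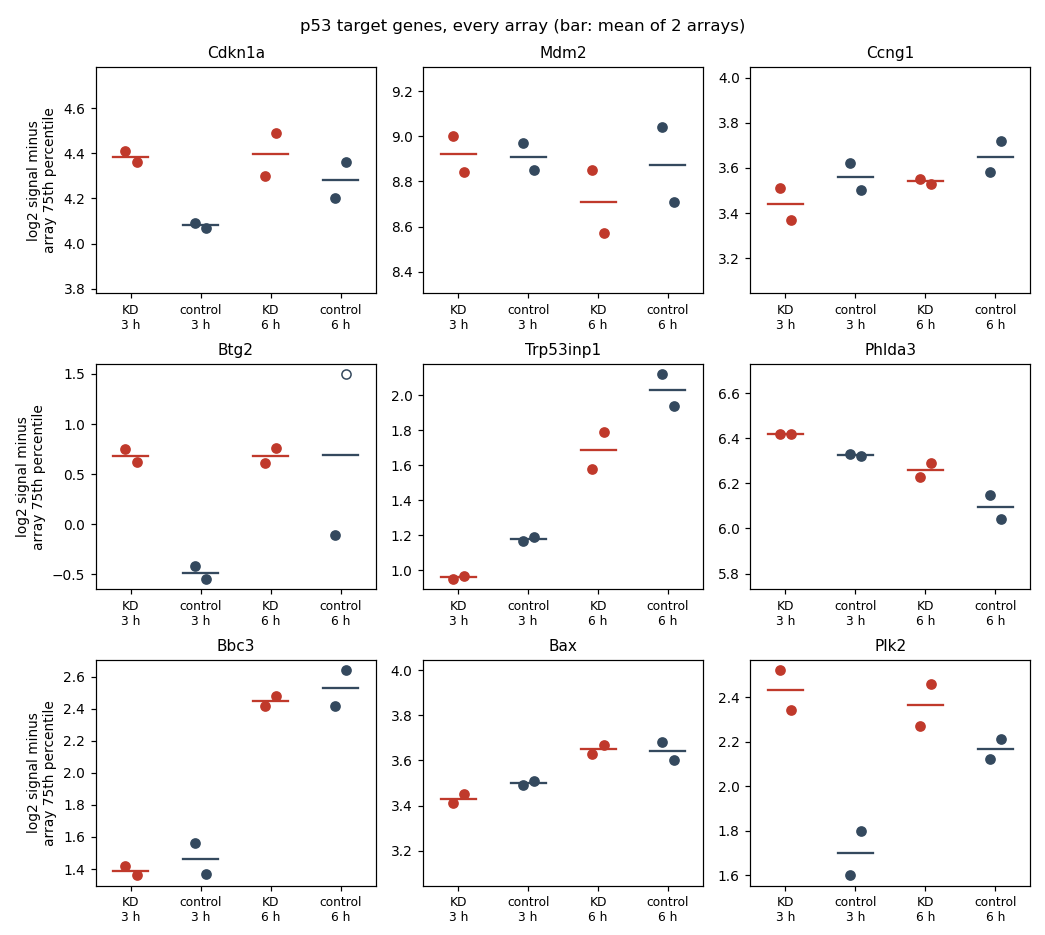
Levels of the 9 members on every array, as log2 signal minus the array's 75th percentile (vertical axes, each panel with its own range), for knockdown (KD) and control supernatant at 3 h and 6 h. Points are arrays, bars are means of 2 arrays, and the hollow Btg2 point at 1.5 is the spot inside a bright patch of its array. Plk2 stands apart at 3 h, with 2.52 and 2.34 for KD against 1.60 and 1.80 for control, and Bbc3 stands between 2.42 and 2.64 at 6 h and between 1.36 and 1.56 at 3 h.

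Among the genes of the cell cycle, Plk2 rose with knockdown supernatant. At 3 h its levels were 2.52 and 2.34 on the knockdown arrays, against 1.60 and 1.80 on the control arrays, and at 6 h they were 2.27 and 2.46, against 2.12 and 2.21. The knockdown arrays were above the control arrays at both times, and the 3 h control arrays were the lowest of the 8. The difference averaged over both times was 0.47 ± 0.081 (SE, n = 4 arrays a supernatant, 95% interval 0.27 to 0.67), a 1.38-fold difference, with an adjusted p of 0.0458 in limma. At 3 h alone it was 0.73 ± 0.11 (1.66-fold, adjusted p = 0.0937), and at 6 h 0.20 ± 0.11 (1.15-fold, adjusted p = 0.383). The change of this difference between the times was -0.53 ± 0.16 (adjusted p = 0.499). The call rested on the margin. It held under 8 of 21 alternatives, the difference lay between 0.42 and 0.60 in all of them, and with any 1 array left out other than replicate 2 of control 6 h the adjusted p was above 0.05, up to 0.158.

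Of 8 markers of macrophages and leukocytes, 4 were above background on every array, Ptprc, Adgre1 and Tyrobp were on none, and Cd68 had no probe. Of 8 endothelial and muscle markers, 4 were above background on every array as well, and 4 on none. Their summed linear signal, not scaled between arrays, was 26993 and 26560 on the knockdown arrays at 3 h, against 21554 and 23161 on the control arrays. At 6 h it was 20235 and 23397, against 20031 and 22799. The 75th percentile of the arrays ran from 478 to 621, so these sums also carry differences in array brightness. Among the macrophage and leukocyte markers Cd14 alone passed between the supernatants, and only for the average. It was higher with knockdown supernatant by 0.47 ± 0.058 (adjusted p = 0.0168 in limma), an average difference of the same size as that of Plk2. Whether Cd14 was read from the 3T3-L1 cells themselves was not tested, nor was its part in the Plk2 result.

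Btg2 had levels of 0.75 and 0.62 on the knockdown arrays at 3 h, against -0.42 and -0.55 on the control arrays. At 6 h it had 0.61 and 0.76 on the knockdown arrays, against -0.11 and 1.5 on the control arrays. The groups did not overlap at 3 h, while at 6 h the 2 control arrays lay on either side of both knockdown arrays. The difference was 1.17 ± 0.48 at 3 h (95% interval -0.02 to 2.36, 2.25-fold, adjusted p = 0.479) and -0.0078 ± 0.48 at 6 h (adjusted p = 0.994). The value of 1.5 came from a spot on replicate 2 of control 6 h that lay in a bright patch. There the neighbouring spots read a median of 0.70 above their own medians over the arrays, while on the other 7 arrays the same neighbours read between -0.19 and 0.14. With spots in such patches set to missing, which leaves 1 control array at 6 h, Btg2 differed by 1.17 at 3 h (adjusted p = 0.0394), by 0.79 at 6 h (adjusted p = 0.0511) and by 0.98 on average (adjusted p = 0.00884). Without that whole array the 6 h difference was 0.79 (adjusted p = 0.0268) and the average 0.98 (adjusted p = 0.00758). Without replicate 1 of control 6 h, which keeps the spot in the patch, the 6 h difference was -0.81 (adjusted p = 0.0342) and the average 0.18 (adjusted p = 0.265). The 6 h value of Btg2 thus depended on which of these 2 control arrays was kept. The 3 h difference uses neither array, but the shared spread does, and without either one its adjusted p was 0.047. Btg2 and Plk2 were the 2 members with the cyclic AMP response element printed above. That motif was chosen with their values known, and its part in these differences was not tested.

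Cdkn1a, the textbook p53 target, was read by 10 spots of its brighter probe. At 3 h it had 4.41 and 4.36 on the knockdown arrays, against 4.09 and 4.07 on the control arrays. At 6 h it had 4.30 and 4.49, against 4.20 and 4.36. The groups were apart at 3 h and overlapped at 6 h. The spots of 1 array had an SD of 0.037 to 0.068, which covers the reading within an array and not the spread between samples. The difference was 0.31 ± 0.092 at 3 h (95% interval 0.08 to 0.54, adjusted p = 0.33) and 0.11 ± 0.092 at 6 h (95% interval -0.11 to 0.34, adjusted p = 0.527), and neither passed.

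Ccng1 had 3.51 and 3.37 on the knockdown arrays at 3 h, against 3.62 and 3.5 on the control arrays, and 3.55 and 3.53 at 6 h, against 3.58 and 3.72. The averaged difference was -0.12 ± 0.061 (95% interval -0.27 to 0.03, adjusted p = 0.357). The arrays overlapped at 3 h, and at 6 h both knockdown arrays lay below both control arrays.

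Mdm2, the ligase that closes the p53 feedback loop, had 9.0 and 8.84 on the knockdown arrays at 3 h, against 8.97 and 8.85 on the control arrays. At 6 h it had 8.85 and 8.57, against 9.04 and 8.71. The arrays of the supernatants overlapped at both times. The difference was 0.0096 ± 0.15 at 3 h (95% interval -0.36 to 0.38, adjusted p = 0.996) and -0.17 ± 0.15 at 6 h (95% interval -0.54 to 0.21, adjusted p = 0.57). The signal of this probe, the only one of Mdm2, ran from 220920 to 264290 and was not marked as saturated on any array. Whether so bright a probe reads Mdm2 transcripts alone, and whether it reads a change in full, was not tested.

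Among the genes of apoptosis and survival, Trp53inp1 was lower on the knockdown arrays at both times without passing. At 3 h it had 0.95 and 0.97 on the knockdown arrays, against 1.17 and 1.19 on the control arrays. At 6 h it had 1.58 and 1.79, against 2.12 and 1.94. The groups did not overlap at either time, and the average was -0.28 ± 0.069 (95% interval -0.45 to -0.11, adjusted p = 0.104). Phlda3 lay the other way, with 6.42 on both knockdown arrays at 3 h, against 6.33 and 6.32 on the control arrays, and 6.23 and 6.29 at 6 h, against 6.15 and 6.04. Its averaged difference of 0.13 ± 0.047 (95% interval 0.02 to 0.25) had an adjusted p of 0.207.

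Bbc3 and Bax, which promote apoptosis at the mitochondria, had averaged differences near 0. Bbc3 had 1.42 and 1.36 on the knockdown arrays at 3 h, against 1.56 and 1.37 on the control arrays, and 2.42 and 2.48 at 6 h, against 2.42 and 2.64. Bax had 3.41 and 3.45 at 3 h, against 3.49 and 3.51, and 3.63 and 3.67 at 6 h, against 3.68 and 3.60. The averaged difference was -0.073 ± 0.073 for Bbc3 (95% interval -0.25 to 0.11, adjusted p = 0.618) and -0.032 ± 0.043 for Bax (95% interval -0.14 to 0.08, adjusted p = 0.718).

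**Figure D2:**
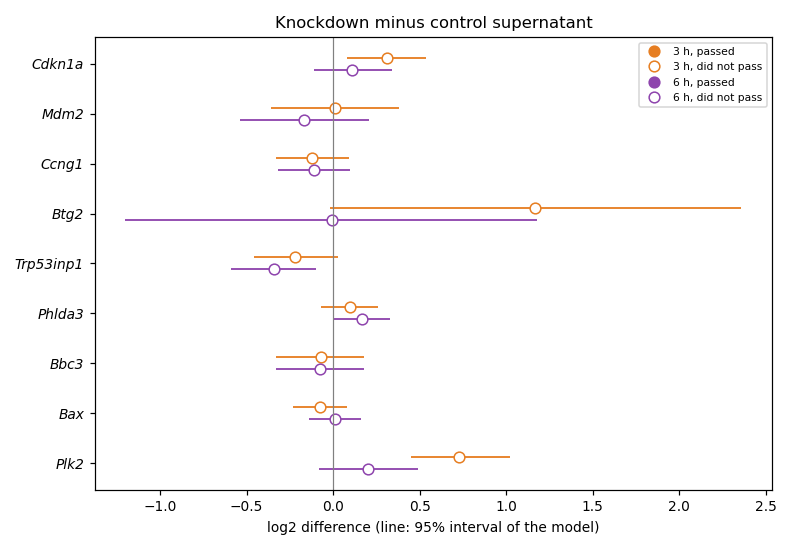
Difference of each member between knockdown and control supernatant at 3 h and 6 h (horizontal axis, log2), with 95% intervals of the model as lines. All points are hollow because none passed at a single time, and the intervals of Btg2, which reach from -0.02 to 2.36 at 3 h, are the widest.

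Bbc3 and Trp53inp1, the latter on its brighter probe, were higher at 6 h than at 3 h with both supernatants. These calls held in all 22 alternatives for each. No alternative read the dimmer Trp53inp1 probe alone, and on that probe the change passed with neither supernatant. Bbc3 at 6 h was higher than at 3 h by 1.06 ± 0.10 with knockdown supernatant (2.08-fold, adjusted p = 0.000848) and by 1.06 ± 0.10 with control supernatant (2.09-fold, adjusted p = 0.00078). Trp53inp1 was higher by 0.72 ± 0.098 with knockdown supernatant (1.65-fold, adjusted p = 0.0026) and by 0.85 ± 0.098 with control supernatant (1.80-fold, adjusted p = 0.00139). Their 6 h arrays all lay above their 3 h arrays. With knockdown supernatant 3 of 9 members passed, all higher at 6 h, and 39.9% of all features passed in either direction. With control supernatant 4 members passed, 3 higher and 1 lower, and again 39.9% of all features passed, so the members' counts were near the background. The arrays of the times did not overlap for 5 members with knockdown supernatant, against 77.5% of all features, and for 7 with control supernatant, against 67.2%. The median change of the members was 0.014 with knockdown supernatant and 0.206 with control supernatant, and that of all features was -0.108 and -0.074.

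The other calls with time were smaller and changed with the processing. Plk2 rose by 0.46 ± 0.11 with control supernatant (adjusted p = 0.0223, called in 15 of 22 alternatives), and its change with knockdown supernatant was -0.066 ± 0.11 (adjusted p = 0.675). Without replicate 1 of control 3 h the Plk2 change with control supernatant was 0.37 (adjusted p = 0.114), and without replicate 2 of control 6 h it was 0.42 (adjusted p = 0.0765). Bax was higher at 6 h by 0.22 ± 0.061 with knockdown supernatant (adjusted p = 0.0345, called in 11 of 22 alternatives). With control supernatant its change was 0.13 ± 0.061 (adjusted p = 0.143, called in 2 of 22 alternatives). There it was -0.067 once arrays were scaled by their median and 0.33 with quantile normalization (adjusted p = 0.00688). Leaving out any 1 of the 3 h arrays or of the knockdown 6 h arrays put the adjusted p of Bax with knockdown supernatant between 0.0662 and 0.155. Phlda3 fell by 0.23 ± 0.066 with control supernatant (adjusted p = 0.035, called in 8 of 22 alternatives), and its change with knockdown supernatant was -0.16 ± 0.066 (adjusted p = 0.0993). That call on Phlda3 was kept without replicate 1 of control 6 h and lost without each of the other 7 arrays, with an adjusted p up to 0.134. Cdkn1a, Mdm2, Ccng1 and Btg2 passed with neither supernatant under the scaling used here. With control supernatant Cdkn1a was called in 3 of 22 alternatives, Ccng1 and Btg2 in 1 each and Mdm2 in 0. Changes with time depended on the scaling. Scaling by the array median put the median of all features at -0.199 and -0.275 with knockdown and control supernatant, and scaling by the 75th percentile over probes above background on all arrays put it at 0.016 and 0.101. Under the second of these, 5994 features were higher and 3990 lower at 6 h with knockdown supernatant, where the scaling used here gave 4566 and 5734.

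**Figure D3:**
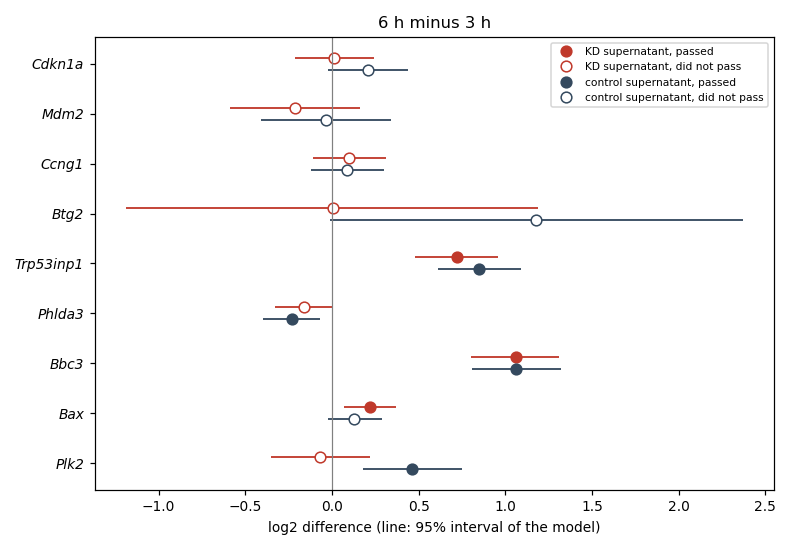
Change of each member, 6 h minus 3 h (horizontal axis, log2), with knockdown (KD) and control supernatant, with 95% intervals of the model as lines and filled points for changes that passed. Bbc3 and Trp53inp1 are filled for both supernatants, at 1.06 and 1.06 and at 0.72 and 0.85, while Plk2 and Phlda3 are filled for control and Bax for KD supernatant.

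Cdkn1a and Trp53inp1 each had a second, dimmer probe. The dimmer Cdkn1a probe, annotated to transcript NM_001111099 where the brighter one is annotated to NM_007669, did not follow the brighter probe. It had -2.37 and -2.45 on the knockdown arrays at 3 h, against -2.42 and -2.22 on the control arrays, and -2.06 and -2.22 at 6 h, against -1.65 and -1.05. Its 2 control arrays at 6 h were the highest of the 8 and differed from each other by more than the other pairs. The difference between supernatants was -0.093 ± 0.20 at 3 h (adjusted p = 0.951) and -0.79 ± 0.20 at 6 h (adjusted p = 0.124), opposite in sign to the brighter probe. The dimmer probe was higher at 6 h than at 3 h by 0.97 ± 0.20 with control supernatant (adjusted p = 0.0117), where the brighter probe had 0.21 ± 0.092 (adjusted p = 0.132). With the mean of both probes Cdkn1a passed this time comparison at 0.59 (adjusted p = 0.0151). Its spot lay in a bright patch on none of the 8 arrays.

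Both Trp53inp1 probes are annotated to NM_021897. The dimmer one had -1.87 and -1.84 on the knockdown arrays at 3 h, against -1.53 and -1.59 on the control arrays, and -1.79 and -1.57 at 6 h, against -1.16 and -1.48. It was lower on the knockdown arrays at both times, and its averaged difference was -0.33 ± 0.090 (adjusted p = 0.13), on the same side as the brighter probe. Its change with time was 0.18 ± 0.13 with knockdown supernatant (adjusted p = 0.312) and 0.24 ± 0.13 with control supernatant (adjusted p = 0.191), so the rise with time passed on the brighter probe alone.

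**Figure D4:**
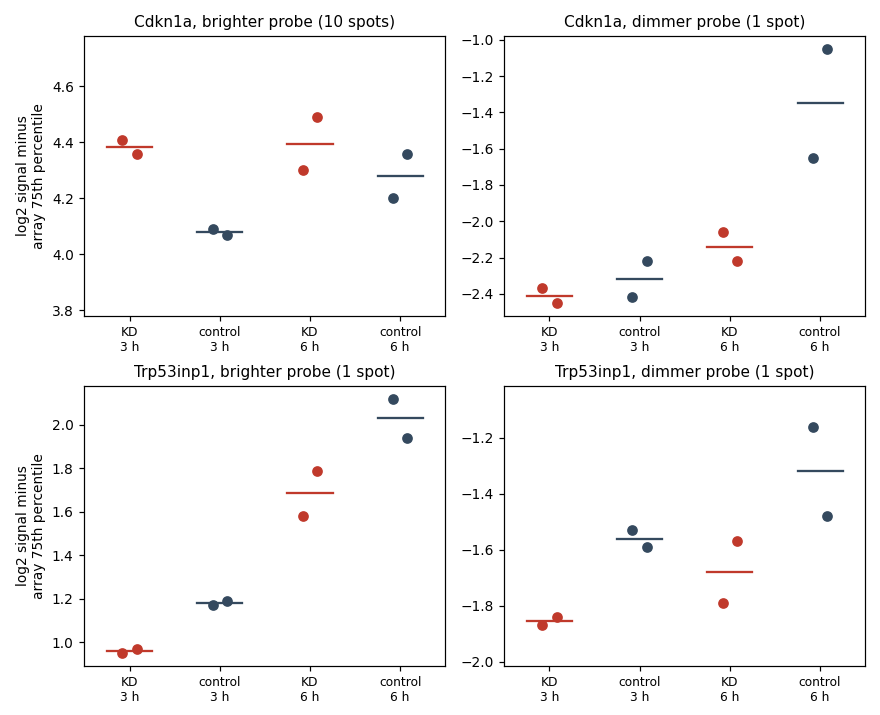
Levels of the brighter and the dimmer probe of Cdkn1a and Trp53inp1 on every array (vertical axes, log2 signal minus the array's 75th percentile, each panel with its own range). For Cdkn1a the 3 h control arrays are lowest on the brighter probe and the 6 h control arrays highest on the dimmer one, while both Trp53inp1 probes place the knockdown (KD) arrays below the control arrays at each time.

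Genes around the members were read from lists of p53 regulators, other p53 targets, the Bcl2 family, inhibitors of cyclin-dependent kinases and close relatives of the members. Of all 25799 features, 0.244%, 2.3% and 3.13% passed at 3 h, at 6 h and for the average, and 2725, 4987 and 5087 passed unadjusted. Of 36 tested other p53 targets among 39 listed, 1 rose at 3 h, 3 rose at 6 h, and 3 rose and 1 fell for the average. The list's median for the average was -0.06, against -0.011 for all features. Among the genes that rose were Dyrk3, a kinase, and Thbs1, the matrix protein thrombospondin 1, and the gene that fell was Sesn1, a sestrin that restrains mTOR signalling.

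Dyrk3 passed at both times. It had -0.09 and -0.08 on the knockdown arrays at 3 h, against -0.99 and -1.07 on the control arrays, and 0.06 and 0.21 at 6 h, against -0.85 and -0.83. The difference was 0.95 ± 0.074 at 3 h (adjusted p = 0.0244, called in 11 of 22 alternatives) and 0.97 ± 0.074 at 6 h (adjusted p = 0.00769, called in 19 of 22), and the call for the average of 0.96 held in all 21 alternatives. The 3 h call of Dyrk3 was lost, with an adjusted p up to 0.268, without any 1 array other than the 2 of control 6 h. Thbs1 had 5.52 and 5.49 on the knockdown arrays at 3 h, against 4.75 and 4.84 on the control arrays, and 4.61 and 4.76 at 6 h, against 3.64 and 3.75. Its difference at 6 h was 0.99 ± 0.082 (adjusted p = 0.00898), and at 3 h 0.70 ± 0.082 (adjusted p = 0.0567). For both genes the knockdown and control arrays were apart at each time. Thbs1 is also a well-known target of TGF-beta signalling. Sesn1, named after its values were seen, had 0.73 and 0.63 on the knockdown arrays at 3 h, against 1.02 and 1.13 on the control arrays, and 0.95 and 1.11 at 6 h, against 1.5 and 1.53. Its average was -0.44 ± 0.06 (adjusted p = 0.0225, called in 13 of 21 alternatives), and the adjusted p was 0.0674 to 0.108 without any 1 of the 3 h arrays or replicate 1 of knockdown 6 h.

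Of 23 tested p53 regulators among 25 listed, 0 passed at 3 h and 0 at 6 h in limma, 1 and 3 unadjusted, and 1 rose for the average, Ppp1r13l (iASPP), an inhibitor of p53. It had 2.46 on both knockdown arrays at 3 h, against 2.08 and 2.06 on the control arrays, and 2.22 and 2.38 at 6 h, against 2.10 and 2.01. The average was 0.32 ± 0.055 (adjusted p = 0.046, called in 9 of 21 alternatives), and it was lost without any 1 of the 8 arrays, with an adjusted p of 0.0509 to 0.169. Trp53, the gene of p53 itself, had 0.19 and 0.08 on the knockdown arrays at 3 h, against -0.15 and 0.04 on the control arrays, and -0.26 and 0.24 at 6 h, against -0.39 and 0.26. Its difference was 0.19 ± 0.25 at 3 h (95% interval -0.43 to 0.82, adjusted p = 0.891) and 0.052 ± 0.25 at 6 h (adjusted p = 0.927). The replicates at 6 h were further apart than the supernatants. Mdm4, the relative of Mdm2 that also restrains p53, differed by -0.091 ± 0.22 at 3 h (adjusted p = 0.958) and by -0.23 ± 0.22 at 6 h (adjusted p = 0.579). Gadd45a, a p53 target of the DNA damage response, differed by -0.0056 ± 0.11 at 3 h (adjusted p = 0.996) and by 0.20 ± 0.11 at 6 h (adjusted p = 0.361).

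Of 10 tested Bcl2 family genes among 15 listed, 0 passed at 3 h and 0 at 6 h, 3 and 5 unadjusted, and 1 rose and 1 fell for the average. Both are named after their values were seen. Bcl2l1 (Bcl-xL), an inhibitor of apoptosis, had 5.50 and 5.54 on the knockdown arrays at 3 h, against 5.20 and 5.17 on the control arrays, and 4.72 and 4.83 at 6 h, against 4.47 and 4.34, with an average of 0.35 ± 0.054 (adjusted p = 0.0341, called in 11 of 21 alternatives). Bmf, a proapoptotic BH3-only protein, had 1.14 and 1.06 on the knockdown arrays at 3 h, against 1.57 and 1.56 on the control arrays, and 1.66 and 1.70 at 6 h, against 2.01 and 2.02, with an average of -0.40 ± 0.043 (adjusted p = 0.0122, called in 13 of 21 alternatives). Without any 1 of the 3 h arrays or replicate 1 of knockdown 6 h neither gene passed, with an adjusted p up to 0.141 for Bcl2l1 and up to 0.0686 for Bmf, and Bcl2l1 was also lost without replicate 2 of knockdown 6 h. With the mean of all its tested probes in place of the brightest, Bcl2l1 averaged 0.084 (adjusted p = 0.878), so its probes disagreed. Among p53-linked genes of this family, Bbc3 and Bax passed in no comparison of the supernatants, and Pmaip1 was not tested. Of 6 tested inhibitors of cyclin-dependent kinases among 7 listed, 0 passed in any comparison of the supernatants. Unadjusted, 2, 2 and 4 of them passed at 3 h, at 6 h and on average. The counts over all 25799 features were 2725, 4987 and 5087 unadjusted in the same order.

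Of 11 tested close relatives of the members among 14 listed, 0 passed at 3 h, and 2 rose at 6 h and for the average. Unadjusted, 4 of them passed at 3 h, against 2725 of all 25799 features. Plk3, a polo-like kinase related to Plk2, had 1.85 on both knockdown arrays at 3 h, against 1.49 and 1.52 on the control arrays, and 0.52 and 0.64 at 6 h, against -0.15 and -0.19. Its difference was 0.34 ± 0.068 at 3 h (adjusted p = 0.153) and 0.75 ± 0.068 at 6 h (adjusted p = 0.0104), so the larger difference of Plk3 stood at 6 h and that of Plk2 at 3 h. The change of the difference between the times was 0.41 ± 0.096 for Plk3 (adjusted p = 0.415) and did not pass for either gene. Phlda1, a relative of Phlda3, had 4.57 and 4.56 on the knockdown arrays at 3 h, against 3.81 and 3.92 on the control arrays, and 3.28 and 3.47 at 6 h, against 2.73 and 2.81. Its difference was 0.70 ± 0.088 at 3 h (adjusted p = 0.0666) and 0.60 ± 0.088 at 6 h (adjusted p = 0.0342, called in 10 of 22 alternatives). The 6 h call of Phlda1 was kept without replicate 2 of control 6 h and lost without any other 1 array, with an adjusted p up to 0.108.

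**Figure D5:**
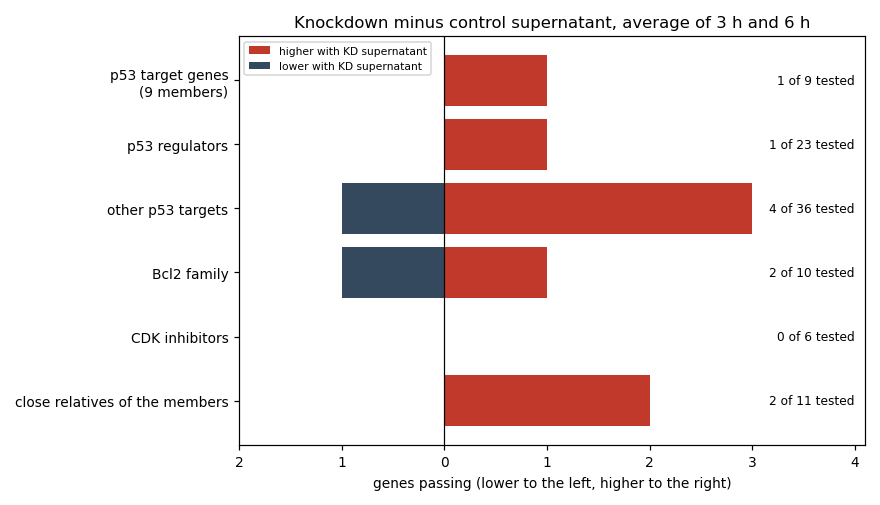
Number of genes per list that passed the test of knockdown minus control supernatant, averaged over 3 h and 6 h (horizontal axis, higher with knockdown (KD) supernatant to the right, lower to the left), with the number tested at the right edge. Among the 9 members 1 passed, and among the 36 other p53 targets 3 passed as higher and 1 as lower.

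The genes whose levels were most like those of Plk2 over the 8 arrays, out of 12564 named genes above background on every array, were Crct1 (Pearson r = 0.975), Bcl2l11 (r = 0.962) and Anapc15 (r = 0.95). Bcl2l11 encodes the proapoptotic protein Bim. These correlations describe 8 arrays of 4 groups and carry no test.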

How the data were processed

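Total RNA of 8 samples was labelled with Cy3 from 0.1 ug each, per the labels' protocols. The authors' deposited scanner output gives each spot a processed signal, a linear intensity after background subtraction and detrending that, per the file headers, had no scaling across arrays. The submitters' processing notes name Agilent Feature Extraction 10.7.3.1. A deposited value table of log2 values equalled the log2 processed signal up to 1 shift per array, with medians of -4.22, -4.23, -4.11 and -4.22 on the knockdown arrays at 3 h and 6 h and -4.14, -4.17, -3.95 and -4.05 on the control arrays, and was used as an alternative. Its scale and direction followed from this match, and it was not centred per gene.

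For scaling, the 75th percentile over all non-control spots of an array was taken off its log2 processed signals. From 163 to 319 outlier spots per array were then left out, and spots of 1 probe were averaged. Probes were named through RefSeq transcripts of assembly GRCm38.p6 (27235 probes) or by symbol (20 probes), and 28426 were unnamed here and tested as probes. Probes were tested where 1 group or more had both arrays well above background (30113 probes), and the brightest probe stood for a gene. A model of 4 group means was fitted in limma 3.58.1 (R 4.3.3; 4 residual and 1.74 prior degrees of freedom). Benjamini-Hochberg adjustment ran over 25799 genes and unnamed probes, and an adjusted p below 0.05 counted as a pass. Errors after ± are this model's standard errors. The number of arrays limits the precision. On simulated data for the 6 h comparison with 25715 genes, limma called 63 of 100 genes changed by 1 on the log2 scale, 88 of 100 changed by 2, and 8 unchanged ones. The simulated noise was independent between arrays, with the same spread in every group, and changes below 1 were not simulated.

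Members, lists, motifs and tests were chosen with earlier results of these data known. From each list, up to 3 called genes with the smallest p in each supernatant comparison were named where all knockdown arrays compared stood apart from all control arrays compared, plus Trp53, Mdm4 and Gadd45a by choice. The values of 1 gene that this rule names are not reported here. Genes most like a called member were the 3 with the highest Pearson r. Replicate numbers were not used as pairs in the main fit. Across all features the replicate differences of the groups correlated at -0.047 to 0.087, which cannot exclude a pairing that acts on some genes. Alternatives were 4 other scalings, normexp background correction (on median spot intensity, in place of the planned mean), the value table, 2 filters on dim probes, 2 rules for several probes, only the arrays compared, a replicate block, array weights, bright patches set to missing, and each array left out. A bright patch is a spot whose neighbours in a square of 7 by 7 spots read a median of over 0.5 above their own medians. All arrays lay on 1 slide scanned once. Counts and plots came from Python 3.11.15 with pandas 2.3.3, numpy 2.4.6, scipy 1.17.1 and matplotlib 3.10.9.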

Additional observations from a re-analysis of the deposited data

How the results depend on the processing

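With 2 arrays a group, calls near the threshold moved with single choices, and the cause was not tested. At 3 h 1 member passed with normexp background correction, with probes above background on all 8 arrays and with array weights (Plk2 each time), and 1 with bright patches set to missing (Btg2). For the average, 0 members passed with quantile normalization, without scaling, with the 75th percentile taken over probes above background on all arrays, without a filter on dim probes, with the replicate block and with array weights, and 2 passed with bright patches set to missing (Btg2 and Plk2). With the replicate block Plk2 averaged 0.47 (adjusted p = 0.077), and whether replicate numbers pair the samples was not settled. With time and control supernatant 2 members passed without scaling, without a filter, with array weights and with only the 4 arrays compared (Bbc3 and Trp53inp1). With 1 array left out the members that passed ranged from 0 to 1 at 3 h, 0 to 1 at 6 h, 0 to 2 for the average, 0 to 1 for the difference of the effects, 2 to 3 for time with knockdown supernatant and 2 to 5 for time with control supernatant. A group left with 1 array was assumed to vary like the other groups. Btg2 at 6 h, -0.0078 with all arrays, was 0.79 (adjusted p = 0.0268) without replicate 2 of control 6 h, and was -0.81 (adjusted p = 0.0342) without replicate 1. Of 1170 member values under alternatives, 1107 kept their side of the threshold with no called value turned, 45 lost a call, 17 gained 1 and 1 turned its sign, and of 977 that passed neither way 61 had the other sign.

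The background counts moved too. Of all features, 63 passed at 3 h and 593 at 6 h, and 0 and 223 with the replicate block, 126 and 551 with normexp, 316 and 193 with array weights, 0 and 96 without scaling, 0 and 18 without a filter, 193 and 778 with probes above background on all 8 arrays, 25 and 1075 with array medians, and 0 and 0 with only the 4 arrays compared. At 6 h 413 were higher and 180 lower, against 967 and 108 with array medians and 51 and 45 without scaling.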

Other observations

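The other p53 targets were also read over time, and their calls went in both directions, as did those of all features. Of 36 tested genes, 11 rose and 8 fell at 6 h against 3 h with knockdown supernatant, and 9 rose and 9 fell with control supernatant, where 39.9% of all features passed with either supernatant. With both supernatants 15 of them passed in the same direction, 8 higher and 7 lower at 6 h. The genes named here were chosen after their values were seen. Gls2, a mitochondrial glutaminase, was higher at 6 h by 1.26 ± 0.15 with knockdown supernatant and 1.16 ± 0.15 with control supernatant. Pidd1, a scaffold of the caspase-2 complex, was higher by 0.79 ± 0.072 and 0.97 ± 0.072, and Igfbp3, which binds insulin-like growth factors, by 0.81 ± 0.14 and 0.54 ± 0.14, in the same order. Tnfrsf1b, a receptor of tumour necrosis factor, had a change of -1.67 ± 0.15 with knockdown supernatant and -2.12 ± 0.15 with control supernatant. Apaf1, the core of the apoptosome, had -0.74 ± 0.14 and -1.16 ± 0.14, and Thbs1 had -0.82 ± 0.082 and -1.11 ± 0.082, again with knockdown supernatant first. All these changes passed in limma, with adjusted p-values up to 0.0274.

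The close relatives of the members were also read over time. Of 11 tested genes, 1 rose and 7 fell at 6 h against 3 h with knockdown supernatant, and 2 rose and 8 fell with control supernatant. Of all 25799 features, 4566 rose and 5734 fell with knockdown supernatant, and 4200 rose and 6093 fell with control supernatant, 39.9% passing with each. Plk3 had a change of -1.27 ± 0.068 with knockdown supernatant (adjusted p = 0.000169) and -1.68 ± 0.068 with control supernatant (adjusted p = 0.00011), while its relative Plk2 had -0.066 ± 0.11 and 0.46 ± 0.11. Phlda1 had a change of -1.19 ± 0.088 with knockdown supernatant (adjusted p = 0.000365) and -1.10 ± 0.088 with control supernatant (adjusted p = 0.000427), while Phlda3 had -0.16 ± 0.066 and -0.23 ± 0.066.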
